A study of Mus musculus with 32 samples.

Results

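Rows for miR-199a, miR-199b, miR-214, miR-21a, miR-21b and miR-21c were taken from a table of miRNA values in mouse mesenteric artery. Of these, miR-199a, miR-214 and miR-21a are abundant in fibroblasts and other mesenchymal cells. All were chosen by name, with both arms of each hairpin where listed. The rule found 9 of 870 miRNA rows: miR-199a-5p, miR-199a-3p, miR-199b-5p, miR-214-5p, miR-214-3p, miR-21a-5p, miR-21a-3p, miR-21b and miR-21c. All 9 reached the level needed for testing, which was met by 354 rows: 8 or more libraries with a value of 1 or above.

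Small RNA was sequenced from arteries dissected free of perivascular fat and veins, 1 library per animal number. All mice were males aged 10 to 12 weeks at the start and all carried a Cre recombinase that is driven by the endothelial Tie2 promoter and activated by tamoxifen. Controls (ieCre) carried this Cre alone, and ieET-1 mice also made an excess of endothelin-1, a peptide that constricts vessels, from the endothelium. Every mouse received tamoxifen under the skin at 1 mg/kg each day for 5 days, and arteries were taken after 16 days (short term) or 3 months (long term). There were 7 ieCre mice and 8 ieET-1 mice in the short-term pair of groups, and the long-term pair had the same numbers. The labels list 2 more ieCre mice, 1 for each time, which were not analysed here. The labels give no group without tamoxifen or without Cre, so an effect of either is shared by all 4 groups.

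A miRNA guides a silencing complex to mRNAs that match its seed, the stretch from base 2 to base 8. The miR-199a and miR-214 hairpins on chromosome 1 are made from the long noncoding RNA Dnm3os, and both are widely studied in skin, heart, kidney and lung fibroblasts, where they have been linked to collagen deposition and, for miR-199a-5p, to caveolin-1. miR-21 is raised in many injured and fibrotic tissues, is expressed in smooth muscle, endothelium, macrophages and fibroblasts alike, and has Pdcd4 and Spry1 among its known targets. One arm of each hairpin usually accumulates and the other is degraded, so the ratio of the arms describes how a precursor was used.

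The sequences are shown because they give the seeds and the bases at which the miR-21 rows differ. All come from RefSeq (GRCm38.p6), run 5′ to 3′, and have the seed in capitals. The 8 miRNAs with a mature sequence there are given first by the 3 families.
miR-199a-5p: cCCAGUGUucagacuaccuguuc
miR-199a-3p: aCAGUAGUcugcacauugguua
miR-214-5p: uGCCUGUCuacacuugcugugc
miR-214-3p: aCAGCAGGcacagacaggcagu
miR-21a-5p: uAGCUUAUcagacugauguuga
miR-21a-3p: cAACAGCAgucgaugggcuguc
miR-21b: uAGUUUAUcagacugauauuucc
miR-21c: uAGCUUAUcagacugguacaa

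miR-21a-5p and miR-21c share a seed, AGCUUAU, and are alike over their first 15 bases. They differ at A16G, G18A, U19C, U20A and G21A, with positions counted from the 5′ end of miR-21a-5p and its base written first. miR-21b differs from miR-21a-5p at C4U, which lies in the seed, and at G18A, G21U and A22C. Among the 691 rows with a sequence, none outside the 9 carried the seed of any of these 8 miRNAs.

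The hairpins lie at 7 places in GRCm38. Mir199a-2 (chr1:162217814-162217923, plus strand) and Mir214 (chr1:162223368-162223477, plus strand) are 5444 bases apart. Both fall within exons of Dnm3os on the same strand and within an intron of Dnm3 on the opposite strand. Mir199a-1 (chr9:21496495-21496564, minus strand) lies in an intron of Dnm2 and Mir199b (chr2:32318460-32318569, plus strand) in an intron of Dnm1, each opposite to its host. The 2 miR-199a hairpins give the same mature arms, so the reads do not say which was used. The hairpins are shown with their mature arms in capitals, since the arm ratios rest on them.
Mir199a-2: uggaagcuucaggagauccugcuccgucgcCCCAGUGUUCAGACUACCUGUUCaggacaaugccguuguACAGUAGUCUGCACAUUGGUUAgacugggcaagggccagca
Mir214: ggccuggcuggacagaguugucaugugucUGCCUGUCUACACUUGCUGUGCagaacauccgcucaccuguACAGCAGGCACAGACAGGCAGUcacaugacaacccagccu
Mir21a: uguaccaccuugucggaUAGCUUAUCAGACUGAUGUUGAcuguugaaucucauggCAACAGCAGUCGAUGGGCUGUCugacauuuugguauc

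The last of these, Mir21a (chr11:86584067-86584158, minus strand), lies within an exon of Vmp1 on the same strand. Mir21b (chr3:29636744-29636851, plus strand) lies in an intron of Egfem1, and Mir21c (chr8:128278148-128278225, minus strand) overlaps no annotated gene. The Mir199b hairpin contains the 22 bases of miR-199a-3p unchanged. The row named miR-199a-3p can therefore hold reads of 3 hairpins.

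The deposited values are normalized by the authors, and every value was a whole multiple of what 1 read is worth in its library, from 0.0178 to 0.480. The recovered miRNA reads numbered 1820166 to 35531345 per library. Marker miRNAs of smooth muscle (miR-143 and miR-145a) were the highest of the marker lists in every library, and the liver marker miR-122 was at a median value of 0.0865 or below in every group. No list of fibroblast miRNAs independent of these 9 rows was available, so the share of fibroblast RNA was not measured. In whole arteries, fewer cells of a type and less RNA per cell cannot be told apart. Libraries ieCre short term 8 and ieET-1 short term 258 had near-identical values (Pearson r = 0.9999 over all miRNAs, with 0.996 for the next of 435 pairs). Mouse 8 had more recovered reads than mouse 258 in 392 miRNAs and fewer in 0, and the labels put the pair in different groups. The main fits at short term, over time and for the genotype by time difference were also computed without both libraries. So were the fit between ranges of animal number at short term, the correlations and the arm ratios. The long-term genotype fit, the fits within ranges of animal number and the edgeR and DESeq2 fits were not. Animal numbers fell into ranges (below 1000, the 8000s and the 9000s) that were spread unevenly over the groups, and what the ranges stand for is not given in the labels.

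miR-199a-3p and miR-21a-5p were the most abundant of the rows and stood at ranks 24 and 25 of the 870 by median value. miR-199a-5p followed at rank 65, miR-214-3p at 125, miR-199b-5p at 160, miR-214-5p at 210 and miR-21a-3p at 219. miR-21b and miR-21c were at ranks 332 and 333. Together the 9 rows took 0.0789% to 1.64% of all miRNA reads, with a median of 0.509%. The share was highest in ieCre at short term (0.811% ± 0.390, SD, n = 7) and 0.519% ± 0.153 (n = 8), 0.396% ± 0.245 (n = 7) and 0.461% ± 0.226 (n = 8) in ieET-1 short term, ieCre long term and ieET-1 long term.

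**Figure D1:**
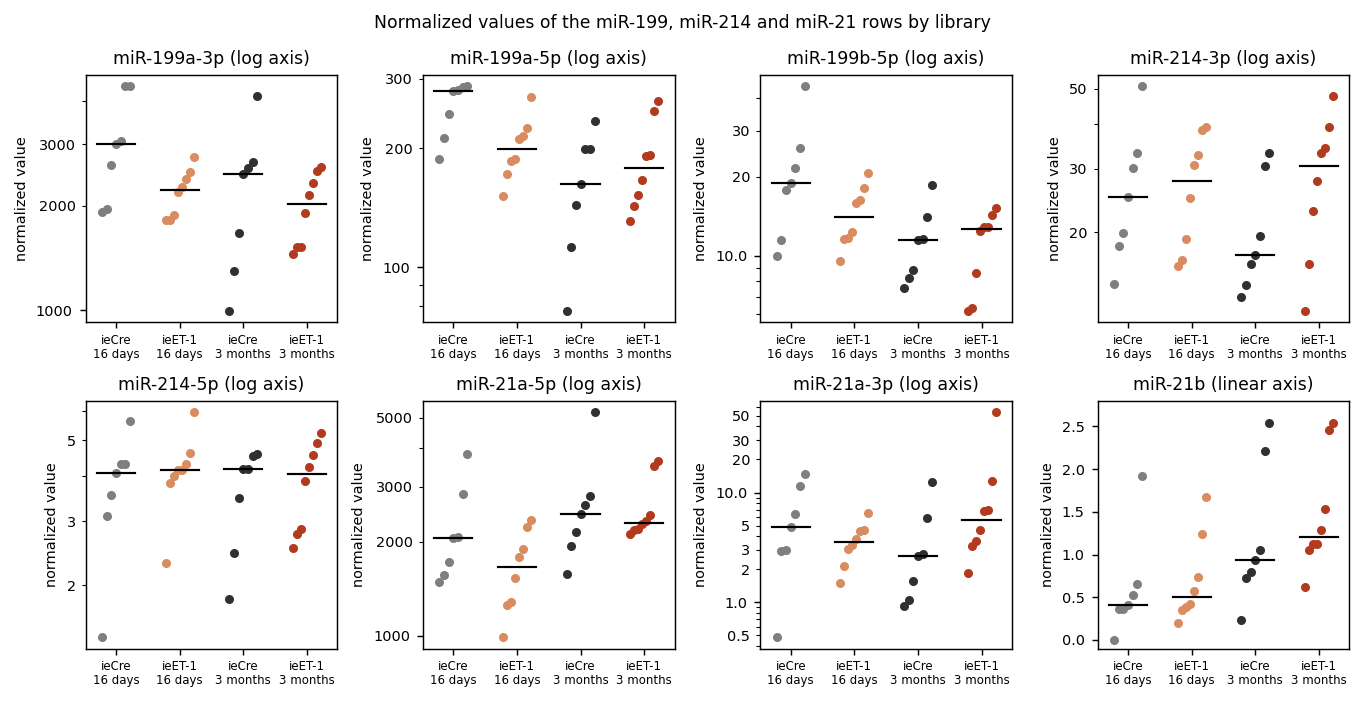
Normalized value (vertical axis) of 8 of the rows in each library by group (horizontal axis), with 1 point per library and a line at the group median. Points within a group are sorted by value, all axes are logarithmic except that of miR-21b, and miR-199a-5p in ieCre moves from a median of 279 at 16 days to 162 at 3 months.

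miR-199a-3p, the arm that accumulates from miR-199a, had values from 1919 to 4424 (median 3000) in ieCre at short term. The values were 1812 to 2766 (median 2220) in ieET-1 at short term, 994 to 4146 (median 2464) in ieCre at long term and 1446 to 2578 (median 2025) in ieET-1 at long term. All 4 groups overlapped. The highest group mean was 3057 ± 1033 (SD, n = 7) in ieCre at short term, and the lowest was 1994 ± 464 (n = 8) in ieET-1 at long term. These means differed by about the larger SD and by more than the smaller.

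miR-199a-5p, the partner arm, ran from 188 to 288 (median 279) in ieCre at short term and from 152 to 270 (median 200) in ieET-1 at short term. At long term it ran from 77.6 to 234 (median 162) in ieCre and from 131 to 263 (median 179) in ieET-1. The ieCre libraries at short term were mostly high, and 3 ieCre libraries at long term, mice 8149, 8088 and 8089, were the only ones of all 30 at or below 144 other than mice 8150 and 8135 of ieET-1 at long term. miR-199b-5p, from the Mir199b hairpin, had group means of 21.4 ± 11.5 (SD, n = 7), 14.5 ± 3.83 (n = 8), 11.5 ± 3.85 (n = 7) and 11.1 ± 3.56 (n = 8) in ieCre short term, ieET-1 short term, ieCre long term and ieET-1 long term. Mouse 10 of ieCre at short term reached 44.4, the highest value of that row.

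miR-214-3p, the arm that accumulates from miR-214, had group means of 27.5 ± 12.3 (SD, n = 7) and 27.3 ± 9.35 (n = 8) in ieCre and ieET-1 at short term. At long term they were 20.6 ± 7.96 (n = 7) and 29.2 ± 11.8 (n = 8). Its values spanned 12.1 to 51.0, and every pair of groups overlapped. miR-214-5p was low and even, with group medians from 4.05 to 4.17 and single values from 1.44 to 5.97. In the shallowest library miR-214-5p rested on 3 reads.

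miR-21a-5p, the main product of miR-21a, ran from 1483 to 3838 (median 2056) in ieCre and from 988 to 2356 (median 1658) in ieET-1 at short term. At long term it ran from 1572 to 5214 (median 2462) in ieCre and from 2112 to 3641 (median 2302) in ieET-1. In ieET-1 mice 6 of the 8 short-term values lay below all long-term ones, and the other two, 2238 and 2356, lay among them. miR-21a-3p, the minor arm, had group means of 6.24 ± 5.08 (SD, n = 7), 3.67 ± 1.55 (n = 8), 3.90 ± 4.16 (n = 7) and 11.7 ± 17.4 (n = 8) in ieCre short term, ieET-1 short term, ieCre long term and ieET-1 long term. The last mean rested on mouse 8151 at 54.1, against 12.7 in the next library of its group.

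miR-21b and miR-21c, single-arm rows of distant hairpins, held 430 and 412 reads over all 30 libraries. Their counts were equal in 25 libraries, miR-21b had more reads in the other 5, and the largest difference was 7 reads. The mature sequences shown above have a longest common run of 11 bases, while miR-21a-5p shares 13 bases with miR-21b and 15 with miR-21c. Both rows were at 0 reads in 1 library and reached a value of 1 in 13 and 12 libraries, and they amounted to a median of 35.3 miR-21b reads per 100000 of miR-21a-5p. These are treated as 1 measurement that appears in both rows, and which hairpin the reads came from cannot be told apart. Group means of miR-21b were 0.606 ± 0.613 (SD, n = 7), 0.700 ± 0.508 (n = 8), 1.21 ± 0.839 (n = 7) and 1.47 ± 0.687 (n = 8) in the same order of groups.

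The first comparison asked which of these miRNAs differed between ieET-1 and ieCre arteries 16 days after tamoxifen. None of the 9 passed limma's test with Benjamini-Hochberg adjustment over 354 miRNAs (adjusted p from 0.990 to 0.991), and the background was 0% called. At an unadjusted p below 0.05 limma gave 9 of the 354 miRNAs (2.54%), edgeR and DESeq2 13 each (3.67%), and both tools called 0 after adjustment. The miR-199 rows had lower means in ieET-1. miR-199a-3p had a log2 difference of -0.42 ± 0.24 (SE), with a 95% interval from -0.92 to 0.08. miR-199a-5p had -0.33 ± 0.20, with an interval from -0.74 to 0.08, and miR-199b-5p -0.42 ± 0.26, from -0.95 to 0.11.

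All 8 ieET-1 values of miR-199a-3p lay below the ieCre mean at this time, and 3 of them below every ieCre value. miR-21a-5p had a log2 difference of -0.40 ± 0.24 (SE), with a 95% interval from -0.88 to 0.09. Within animal numbers below 1000 its value was -0.78, and within 8000 or above it was -0.01 (limma, adjusted p = 0.469 and adjusted p = 0.991). For miR-199a-5p the 2 values were -0.12 and -0.59 (adjusted p = 0.805 and 0.601). The fits below 1000 hold both libraries of the near-identical pair and were not run without them. Over all animal numbers, the log2 differences without the near-identical pair were -0.48 for miR-199a-3p, -0.38 for miR-199a-5p, -0.50 for miR-199b-5p and -0.46 for miR-21a-5p, and none passed (limma, adjusted p = 0.963 for each). That of miR-214-3p was then 0.03 (adjusted p = 0.984).

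The median log2 difference of the 9 rows at short term was -0.33, beside -0.04 for all 354 miRNAs. miR-214-3p had means of 27.3 in ieET-1 and 27.5 in ieCre, a difference below its spread, and the 95% interval of its log2 difference ran from -0.56 to 0.60.

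At long term the same comparison asked which rows differed after 3 months of endothelin-1. Again 0 of 9 passed limma's test (adjusted p from 0.805 to 0.989, background 0%), with 20 of 354 miRNAs (5.65%) below an unadjusted p of 0.05 in limma, 26 (7.34%) in edgeR and 25 (7.06%) in DESeq2, which both called 0 after adjustment. miR-21a-3p had the widest difference of the rows, with a log2 difference of 1.02 ± 0.50 (SE), a 95% interval from -0.00433 to 2.05 and an adjusted p of 0.805. Without mouse 8151 the log2 difference was 0.62. The higher ieET-1 values were 54.1 and 12.7 and the highest ieCre value was 12.5, so that 2 of 8 ieET-1 values lay above every ieCre value.

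miR-214-3p had a log2 difference of 0.44 ± 0.29 (SE) at long term, with a 95% interval from -0.14 to 1.03 and a limma adjusted p of 0.854. Its value was 14.3 to 17.3 in the 3 ieCre mice with numbers in the 8000s and 16.4 to 47.8 in the 6 ieET-1 mice of that range. Among the 9000s the 4 ieCre mice had 13.2 to 33.2 and the 2 ieET-1 mice 12.1 and 34.2, and the log2 difference there was -0.14.

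miR-199a-5p, which had a mean of 161 in ieCre and 186 in ieET-1 at long term, had a log2 difference of 0.25 ± 0.20 (SE), with a 95% interval from -0.17 to 0.66. Leaving out each library gave 0.09 to 0.35. With a term for the animal-number range the log2 difference was 0.45 (limma, adjusted p = 0.291). Within the 8000s it was 0.57 and within the 9000s 0.38 (adjusted p = 0.317 and 0.641). The medians of the 9 rows and of all miRNAs were 0.15 and -0.01 on the log2 scale. The adjusted p values do not show that the genotypes were alike: the interval of miR-21a-5p, for example, reached from -0.47 to 0.50.

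The change from 16 days to 3 months was compared within each genotype. In ieCre arteries miR-199a-5p fell, with a log2 change of -0.72 ± 0.21 (SE) and a 0.608-fold level (limma, adjusted p = 0.025). The mean went from 254 ± 39.9 (SD, n = 7) to 161 ± 54.5 (n = 7). It was the only called row of the 9, against a background of 28 of 354 miRNAs (7.91%), of which 20 (5.65%) fell and 8 (2.26%) rose.

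miR-199b-5p had a log2 change of -0.76 ± 0.27 (SE) and a 95% interval from -1.30 to -0.21 (limma, adjusted p = 0.074). miR-199a-3p had -0.51 ± 0.25, with an interval from -1.02 to 0.01 (adjusted p = 0.195). miR-21a-5p had 0.25 ± 0.25, with an interval from -0.25 to 0.75. The 3 miR-199 rows had lower means at 3 months, and of these only miR-199a-5p passed. The median of the 9 rows was -0.37 and that of all miRNAs -0.13.

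The call of miR-199a-5p in ieCre was lost without mouse 8088 (limma, adjusted p = 0.068), 8149 (adjusted p = 0.091) or 8089 (adjusted p = 0.050), the long-term mice with numbers in the 8000s, and the log2 change without each library lay between -0.82 and -0.56. Within animal numbers of 8000 or above it was -0.89 (adjusted p = 0.093), and with the range as a term -0.81 (adjusted p = 0.003). Without the near-identical pair the log2 change was -0.79 (adjusted p = 0.027), and miR-199b-5p then passed as well with -0.90 (adjusted p = 0.033). edgeR on the recovered reads gave miR-199a-5p an adjusted p of 0.049, in 32 calls over all miRNAs (9.04%), and DESeq2 0.028, in 34 calls (9.60%).

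The scale of the values mattered for size. With values scaled to each library's total reads, the median of all miRNAs moved from -0.13 to -0.93 and miR-199a-5p had -1.79, which is -0.86 relative to that median, beside -0.59 relative to the median with the authors' scaling. With the scaling to total reads 213 of 354 miRNAs (60.2%) were called, both directions counted. Among them were 6 of the 9 rows, all lower at 3 months. The summed level of 4 smooth muscle marker rows moved the other way in ieCre, running from 195656 to 397684 at short term and from 385949 to 2254716 at long term. Of the 4 rows, 3 had changes above 0, and miR-143-3p passed with a log2 change of 1.43 (limma, adjusted p = 0.017). miR-145a-3p had 1.30 ± 0.63, miR-145a-5p 0.16 ± 0.23 and miR-143-5p -0.17 ± 0.22 (SE). The rows do not weigh evenly in the sum: the median log2 ratio of 3p to 5p reads of miR-143 was 15.8. The part of smooth muscle RNA in the change of miR-199a-5p was not tested. The endothelial marker rows (miR-126) went from a median of 12885 to 11896. The 3 erythroid rows (miR-451a and miR-144) all had log2 changes below 0 in ieCre (median -0.76), and none passed. Their summed value ran from 132 to 737 (median 331) at short term and from 53.3 to 710 (median 195) at long term, and their part in the change was not tested.

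In ieET-1 arteries 0 of 9 rows passed limma's test between 16 days and 3 months (adjusted p from 0.084 to 0.931), against a background of 21 of 354 miRNAs (5.93%), 7 higher (1.98%) and 14 lower (3.95%). At an unadjusted p below 0.05 the count over all miRNAs was 83 (23.4%) in limma. miR-21a-5p had a log2 change of 0.66 ± 0.23 (SE), a 1.58-fold level and a 95% interval from 0.19 to 1.13 (adjusted p = 0.084). Its mean went from 1666 ± 488 (SD, n = 8) to 2584 ± 617 (n = 8).

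The 4 short-term ieET-1 mice with numbers below 1000 held the lowest miR-21a-5p values, 988 to 1527, and the 4 in the 8000s had 1788 to 2356. Within numbers of 8000 or above, the log2 change of miR-21a-5p was 0.30 (limma, adjusted p = 0.597). It passed without mouse 8990 of the short-term group (0.74, adjusted p = 0.046), and without the near-identical pair it was 0.65 (adjusted p = 0.142). miR-21b and miR-21c, which repeat the same reads, had log2 changes of 0.54 ± 0.22 and 0.52 ± 0.22 (SE), with adjusted p of 0.154 and 0.177. miR-21a-3p had 0.82 ± 0.49, with a 95% interval from -0.17 to 1.81 (adjusted p = 0.288), and 0.42 without mouse 8151. DESeq2 called miR-21a-3p (log2 change 1.67, adjusted p = 0.033, in 44 calls over 347 miRNAs, 12.7%), and edgeR called 0 of the 9 in its 36 calls (10.2%).

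The 5 tested epithelial marker rows, of the miR-200 group, all had changes above 0 in ieET-1 over time (median 1.13), and none passed. Their list had a summed value of 5.01 to 76.0 at short term and 1.68 to 954 at long term, and its part in the miR-21 rows was not tested. The 4 tested rows of the pancreas list were also all above 0 (median 0.94), with 0 called. That list had a summed value of 18.5 to 429 (median 49.7) at short term and 52.5 to 1081 (median 214.4) at long term, and its part was not tested either. The leukocyte list was at 115 to 348 and 118 to 262, with 1 of its 5 tested rows above 0.

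The miR-199 rows in ieET-1 had log2 changes of -0.16 ± 0.24 for miR-199a-3p, -0.14 ± 0.20 for miR-199a-5p and -0.39 ± 0.25 for miR-199b-5p (SE), and none passed (limma, adjusted p = 0.693, 0.681 and 0.311). Whether the time change differed between genotypes is the same question as whether the genotype effect differed between times, and this difference was tested directly. None of the 9 rows passed (limma, adjusted p from 0.602 to 0.936, background 0%, with 24 of 354 miRNAs, 6.78%, below an unadjusted p of 0.05, 28 in edgeR and 32 in DESeq2, which both called 0 after adjustment). For miR-199a-5p the difference was 0.58 ± 0.29 (SE) on the log2 scale, with a 95% interval from -0.01 to 1.16 (adjusted p = 0.602). The fall of miR-199a-5p in ieCre is thus not shown to differ from the change in ieET-1. For miR-21a-3p it was 1.38 ± 0.71, with an interval from -0.07 to 2.83, and for miR-21a-5p 0.41 ± 0.34, from -0.27 to 1.10.

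**Figure D2:**
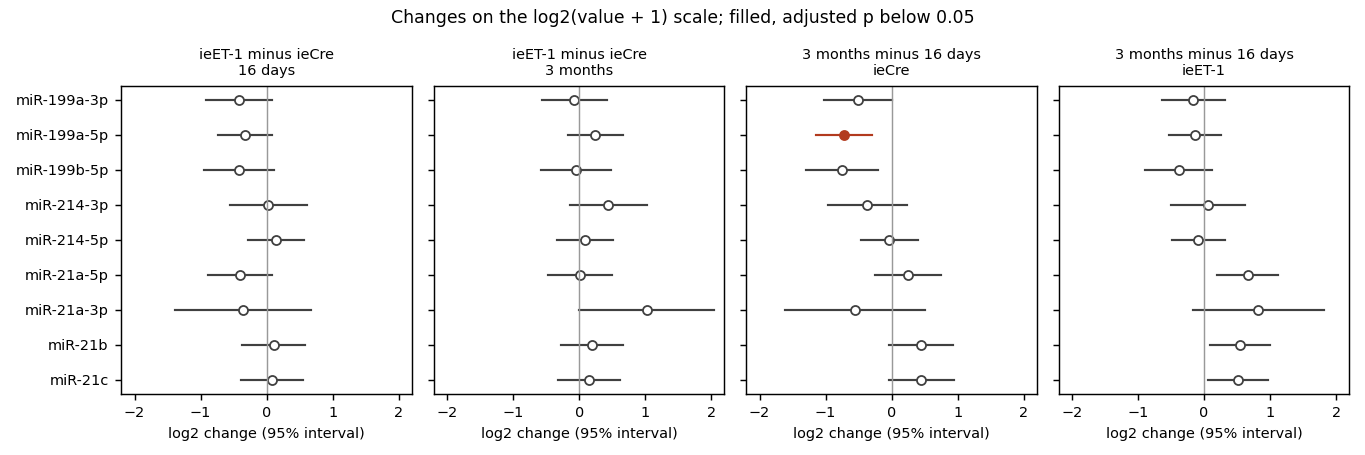
Log2 change on the log2(value + 1) scale (horizontal axis, with 95% intervals from limma) of each of the 9 rows (vertical axis) in the 4 comparisons. Filled points have an adjusted p below 0.05 over 354 miRNAs, and miR-199a-5p in ieCre over time (-0.72) is the only one.

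A ratio of rows within a library does not depend on the library's scaling. The ratio of miR-21a-5p to miR-199a-3p reads was 0.744 ± 0.184 (SD, n = 7) and 0.775 ± 0.249 (n = 8) in ieCre and ieET-1 at short term, and 1.30 ± 0.437 (n = 7) and 1.37 ± 0.501 (n = 8) at long term. It spanned 0.394 to 1.08 over the short-term ieET-1 libraries and 0.903 to 2.31 over the long-term ones. The groups of each genotype overlapped between times, and no test was run on this ratio. The ratio of miR-199a-3p to miR-214-3p, whose hairpins share the Dnm3os transcript at Mir199a-2, ranged from 45.6 to 307 with a median of 75.6. miR-199a-5p exceeded miR-199b-5p by a median of 15.6 times (6.41 to 30.2).

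Arm ratios were taken from the reads of both arms in 112 miRNAs that had at least 10 reads over both arms in every library. The 3p arm dominated in miR-199a, with a median of 11.3 reads of 3p per read of 5p (8.63 to 20.8). Its group medians were 10.7, 10.9, 12.8 and 10.3 in ieCre short term, ieET-1 short term, ieCre long term and ieET-1 long term. The SD of its log2 arm ratio within groups was 0.287, and the other 111 miRNAs varied more (median SD 0.921). The smallest count of either arm of miR-199a was 246 reads, and its 3p reads include those of the Mir199b hairpin. The comparison of SDs was not matched for depth, since other miRNAs could enter with 10 reads over both arms in a library. The part of low counts in their larger SDs was not tested. Without the near-identical pair the median was 11.5, the SD was 0.296 and the other 111 again varied more.

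In miR-214 the 3p arm also dominated, with a median of 6.97 reads of 3p per read of 5p (2.67 to 16.6) and an SD of 0.727 on the log2 scale. In 53 of the 112 miRNAs the 3p arm was the larger. miR-21a was one-sided toward 5p, with a median of 505 reads of 5p per read of 3p. The lowest ratio, 64.7, was that of mouse 8151 in ieET-1 at long term, and the highest, 5949, that of mouse 9957 in ieCre at short term, whose 3p arm rested on 1 read.

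No arm ratio of the 3 hairpins passed in any of the 5 comparisons (limma, Benjamini-Hochberg over 112 miRNAs). The background was 0% for genotype at short term, at long term and for their difference, 9.82% (11 miRNAs) for time in ieCre and 2.68% (3 miRNAs) for time in ieET-1. At an unadjusted p below 0.05 the 3 first counts were 7 (6.25%), 9 (8.04%) and 11 (9.82%). The log2 ratio of 3p to 5p of miR-21a differed by 1.19 ± 0.57 (SE) between ieET-1 and ieCre at long term, with a 95% interval from 0.02 to 2.36 (unadjusted p = 0.046, adjusted p = 0.563). For miR-199a the same difference was -0.32 ± 0.22, with an interval from -0.78 to 0.14. Without the near-identical pair 0 of these arm ratios passed.

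**Figure D3:**
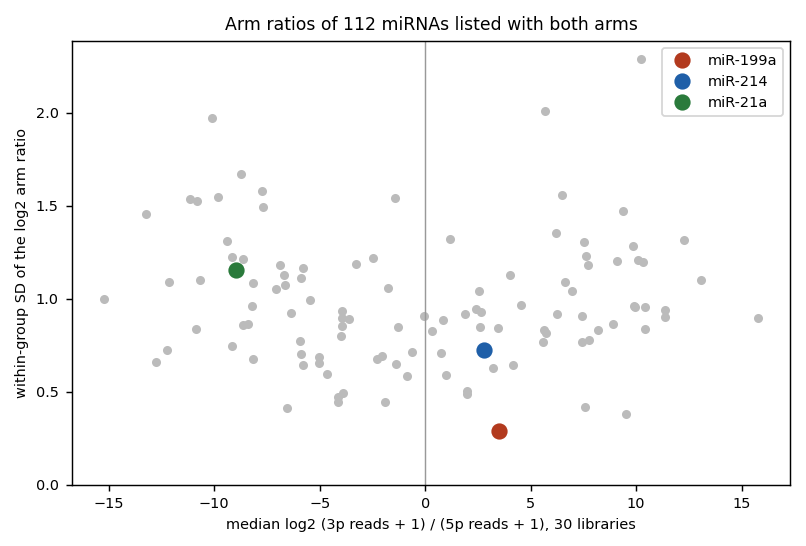
Median log2 ratio of 3p to 5p reads over 30 libraries (horizontal axis) against the within-group SD of that log2 ratio (vertical axis) for 112 miRNAs, 1 point each, with 3 hairpins coloured. miR-199a has the lowest SD, 0.287, and miR-21a lies far to the 5p side.

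Some of these rows differed between ranges of animal number. At short term miR-214-3p was 25.1 to 51.0 in the 8 mice with numbers below 1000 and 14.4 to 24.9 in the 7 mice at 8000 or above. The ranges did not overlap, in ieCre (25.1 to 51.0 in 4 mice against a highest value of 19.98 in 3) or in ieET-1 (30.7 to 39.1 in 4 against 16.2 to 24.9 in 4). Of all 354 miRNAs 3.95% did not overlap between these ranges. With genotype as a term, miR-214-3p was lower at the higher numbers by a log2 difference of -0.88 ± 0.17 (SE; limma, adjusted p = 0.002), in a comparison that called 98 miRNAs (27.7%).

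Without the near-identical pair the log2 difference of miR-214-3p was -0.94 (limma, adjusted p = 0.006), in 68 calls (19.2%). Leaving out each short-term library in turn gave -0.94 to -0.79, and it passed each time. miR-21a-3p was also lower at the higher numbers, by -1.05 ± 0.31 (adjusted p = 0.019), but its adjusted p was 0.060 without the pair.

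At long term the 9 mice with numbers in the 8000s had miR-199a-5p values of 77.6 to 192 and the 6 in the 9000s had 162 to 263. The log2 difference was 0.77 ± 0.17 (SE; limma with genotype as a term, adjusted p = 0.010), in 26 calls (7.34%). It kept its direction and passed without any one long-term library (0.65 to 0.85). miR-199a-3p and miR-199b-5p had 0.75 and 0.63 (adjusted p = 0.056 and 0.073), and miR-214-3p had 0.02. The 3 ieCre mice whose absence ends the call over time are the ieCre mice of the 8000s at long term. In ieCre the 8000s had 3 of 7 libraries at long term and 1 of 7 at short term. Numbers below 1000 occurred only at short term, in 4 of 7 ieCre and 4 of 8 ieET-1 mice. In ieET-1 the 9000s occurred only at long term, in 2 mice. The range and the time are thus partly confounded in both genotypes. The range was also unevenly spread at long term, with 6 of 8 ieET-1 mice in the 8000s.

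**Figure D4:**
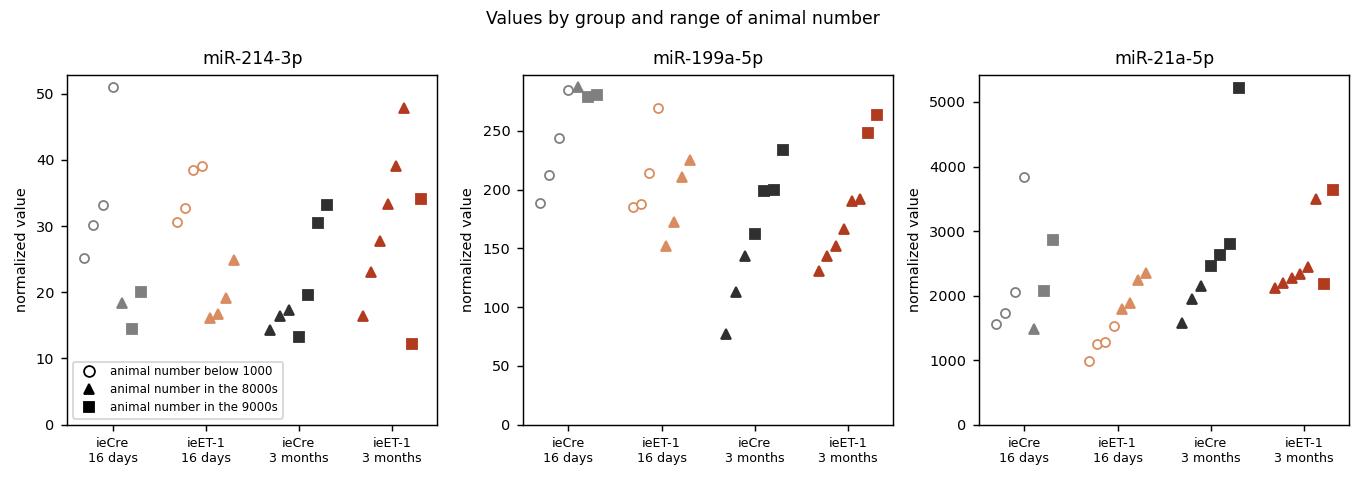
Normalized values (vertical axis, from 0) of miR-214-3p, miR-199a-5p and miR-21a-5p by group (horizontal axis), 1 point per library, with the shape of the point giving the range of animal number. At 16 days every open circle (numbers below 1000) of miR-214-3p lies above every other point, from 25.1 up against 24.9 down.

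Across the 30 libraries, after each group's mean was subtracted, the arms of miR-199a moved together (Pearson r = 0.785, Spearman rho = 0.733, r = 0.718 without the 2 libraries farthest from the median of miR-199a-3p). miR-199a-3p and miR-199b-5p had r = 0.581 and rho = 0.574 (r = 0.630 without 2). miR-199a-3p and miR-214-3p had r = 0.242 and rho = 0.281 (r = 0.146 without 2), and the arms of miR-214 had r = -0.02 and rho = -0.12 (r = 0.03 without 2). These are descriptions over libraries that share the authors' scaling and the ranges of animal number, and no p is given. In the 28 libraries without the near-identical pair miR-199a-3p had r = 0.770 with miR-199a-5p, 0.533 with miR-199b-5p and 0.287 with miR-214-3p. On shares of reads miR-199a-3p had r = 0.936 with miR-199a-5p and r = 0.681 with miR-214-3p.

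miR-21a-5p had r = 0.434 and rho = 0.434 with miR-199a-3p and r = -0.37 and rho = -0.37 with miR-214-3p. Its minor arm, miR-21a-3p, had r = 0.290 and rho = 0.120 with it, and r = 0.05 without 2 libraries. Without the near-identical pair miR-21a-5p had r = 0.402 with miR-199a-3p and r = -0.36 with miR-214-3p.

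**Figure D5:**
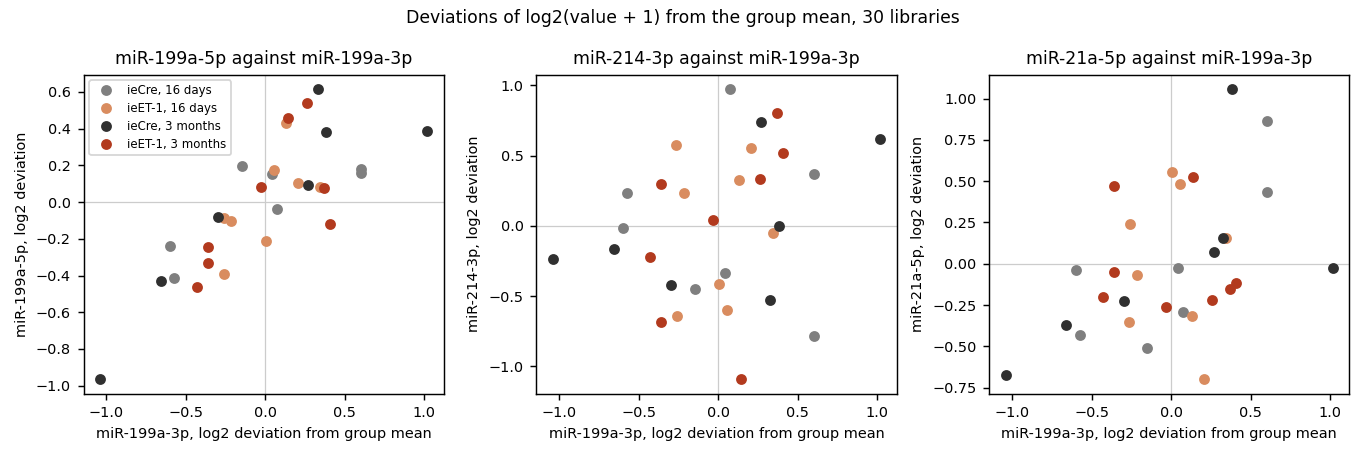
Deviation of log2(value + 1) from the group mean in 30 libraries for miR-199a-5p, miR-214-3p and miR-21a-5p (vertical axes) against miR-199a-3p (horizontal axis), coloured by group. The points of miR-199a-5p line up (r = 0.785) and those of miR-214-3p scatter (r = 0.242).

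For the 5 rows with a median value of at least 10, the miRNAs outside the 9 rows with the highest Pearson r over 30 libraries were found among 345. miR-152-3p had the highest r with miR-199a-3p (r = 0.780, rho = 0.786), followed by miR-28c and miR-28a-5p (r = 0.778 for both), a pair of rows with medians of 54.0 and 54.4. The highest r with miR-199a-5p were those of miR-155-5p (r = 0.764, rho = 0.717), miR-361-5p (r = 0.758, rho = 0.760) and miR-30b-3p (r = 0.749). For miR-199b-5p they were miR-29b-3p (r = 0.774, rho = 0.752), miR-152-3p (r = 0.719) and miR-140-5p (r = 0.694).

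miR-214-3p had its highest r with miR-652-3p (r = 0.788, rho = 0.779), let-7e-5p (r = 0.688) and miR-30c-5p (r = 0.684). For miR-21a-5p these were miR-218-5p (r = 0.784, rho = 0.819), miR-136-3p (r = 0.645) and miR-134-5p (r = 0.640). miR-652-3p and miR-218-5p also came first by Spearman's rho and without the near-identical pair. For the miR-199 rows the order rested on the measure and on the pair. By rho, miR-374b-5p came first for miR-199a-3p (0.819) and miR-361-5p for miR-199a-5p. Without the pair, miR-484 came first for miR-199a-3p (r = 0.805) and miR-140-5p for miR-199b-5p (r = 0.723).

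Other miRNAs that have been linked to fibrosis were counted beside the 9 rows. The lists were chosen with earlier results of these data known, so their counts are a description and no set test was run. Alternative settings are not given for these rows. Of 27 rows described as restraining collagen or fibrosis (the miR-29, miR-30, miR-133, miR-101 and miR-26a groups), 22 were tested. In ieCre over time 2 of the 22 rose, beside 2.26% of all miRNAs, and 0 fell. In ieET-1 3 of the 22 rose, beside 1.98% of all miRNAs, and 0 fell. miR-101a-3p rose 2.54-fold and 2.28-fold in ieCre and ieET-1 (limma, adjusted p = 0.012 and 0.024) and miR-101b-3p 2.21-fold and 2.14-fold (0.012 and 0.022). miR-29b-3p, a repressor of collagen mRNAs, rose 1.75-fold in ieET-1 (adjusted p = 0.048).

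Of 12 rows described as promoting fibrosis 8 were tested, and miR-433-3p fell to 0.569-fold in ieCre and 0.525-fold in ieET-1 (limma, adjusted p = 0.023 and 0.021). It was the only called row of the 8 in each comparison, beside 5.65% and 3.95% of all miRNAs that fell. No row of either list passed between genotypes at either time. The median log2 change over time was 0.07 in ieCre and 0.35 in ieET-1 for the restraining list and -0.09 and -0.11 for the promoting list, beside -0.13 and -0.09 over all 354 miRNAs.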

How the data were processed

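Small RNA libraries were built with a TruSeq kit from 1 µg of artery RNA each, per the labels' protocols. Tools listed in the submitters' processing notes are bcl2fastq 1.8.4, FastQC, STAR 2.3.1, edgeR 3.6.8 and R 3.2.3, and the step each served is not stated. The authors' genome build, miRNA annotation and filters were not given in the sources used here. In the deposited table, made by the authors, each value is a normalized signal. The share of values that were whole multiples of the value of 1 read was 100% (tolerance 0.001), so whole read counts could be recovered, and their number limits the precision of low rows. Of 32 labelled samples 30 have a column. p-values set a difference between groups against the spread between libraries, each labelled with its own animal number. They treat the libraries as independent, which is in doubt for the near-identical pair.

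limma-trend (limma 3.58.1 in R 4.3.3) was fitted to log2(value + 1) of 354 miRNAs with 4 group means, two-sided, with Benjamini-Hochberg adjustment over all 354 and calls at an adjusted p below 0.05. Folds refer to log2(value + 1) and understate changes of low rows. Arm ratios were fitted as log2((3p reads + 1)/(5p reads + 1)). Fits were tested on simulated data. Alternatives were pseudocounts of 0.5 and 5, other filters and scalings, edgeR 4.0.16 and DESeq2 1.42.0 on recovered reads, the range of animal number, and leaving out libraries. Fits within ranges and between ranges were chosen after the data were seen. The rows, lists and tests were chosen with earlier results of these data known. Every row of the rule is named, with the 3 most similar other miRNAs for rows with a median of at least 10 and the called miRNAs of the fibrosis lists. Hairpins were placed by name in GENCODE M21 (GRCm38). Plots used matplotlib 3.10.9 (Python 3.11.15).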

Additional observations from a re-analysis of the deposited data

Results flagged for a closer look

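Single libraries stood apart from the rest of their group on the scale of the deposited values. In ieET-1 at long term, mouse 8151 had a miR-21a-3p value of 54.1 and the next library 12.7. The same library had the lowest ratio of miR-21a arms, a miR-21a-5p value of 3497 within its group's range, and summed marker values of 163 for leukocytes and 39.0 for epithelium, both within the ranges of its group. Its erythroid sum, 695, was the highest of its group, and the part of blood cells in the value was not tested. In ieCre at long term, mouse 9487 had a miR-21a-5p value of 5214, with 2797 in the next library, and a miR-21a-3p value of 12.5, with 5.86 in the next. Its leukocyte sum of 281 was the highest of that group. In ieCre at short term, mouse 9957 had the same value of 1.92 for miR-21b and for miR-21c, with 0.651 in the next library, from 4 reads each in the shallowest library. These 5 came from 84 sets of values tested on both scales, and chance gives about 1 in 20. On the log2 scale none of the rows or arm ratios had a library that far from the others.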

How the results depend on the processing

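The counts of called rows for genotype at short term, genotype at long term, the genotype by time difference and the arm ratios were 0 under every alternative run. The count for time in ieCre, 1 as reported, was 6 with scaling to total reads, 3 with a term for the animal-number range, 2 with edgeR, with DESeq2 and without the near-identical pair, and 0 with array weights, with only the groups compared and within numbers of 8000 or above. Leaving out each library gave 0 to 2. For time in ieET-1, 0 as reported, it was 3 with array weights (miR-21a-5p, miR-21b and miR-21c) and 1 with DESeq2, and 0 to 1 without each library. miR-199a-5p in ieCre over time was below 0 under all 31 alternatives and passed in 23. It was lost with quantile normalization (limma, adjusted p = 0.090), array weights (adjusted p = 0.103), only the groups compared (adjusted p = 0.091) and without libraries under 5000000 reads (adjusted p = 0.061), beside the cases given with the result. miR-199b-5p passed in 9 of 31 and miR-199a-3p in 3: scaling to total reads, the range term (adjusted p = 0.049) and quantile normalization. With the last the count stayed 1 by another row, miR-199a-3p (-0.92, adjusted p = 0.030), and without libraries under 5000000 reads by miR-199b-5p (adjusted p = 0.049). Signs were followed singly for a chosen part of the rows and comparisons. In that part 2 turned in sign, neither of them called: miR-21a-5p in ieCre over time was -0.84 with scaling to total reads, and miR-214-3p between genotypes at long term was -0.14 within the 9000s. Signs also turned outside that part. Between genotypes at long term, miR-199a-3p was above 0 in 6 of 33 settings and miR-21a-5p in 24 of 33. At short term miR-214-3p was above 0 in 23 of 34. The cause was not tested. No paired analysis was possible because the animal numbers do not repeat between groups. A term for the range was not run for time in ieET-1 and for the genotype by time difference. Depth limits miR-21b, miR-21c, miR-214-5p and miR-21a-3p, which rest on 0, 0, 3 and 1 reads in their lowest libraries.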
